A study of Mus musculus with 16 samples.

Results

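The tripartite motif (TRIM) family was taken as every gene of the expression table whose symbol is Trim followed by a number and at most 1 letter. The rule found 42 of 13085 genes, and all 42 had enough reads to enter the tests. The symbols were not chosen on their values. Most of the 42 encode RING-type ubiquitin ligases, and 3 (Trim14, Trim16 and Trim44) encode TRIM proteins that lack the RING domain. By the domain at the end of the protein, 25 were listed as SPRY class (Trim14 and Trim16, which also end in a SPRY domain, were listed as RING-less instead), 3 of the PHD-bromodomain class, 2 of the NHL class, 2 of the COS-FN3-SPRY class and 2 have a membrane anchor. TRIM genes that carry other names, such as Pml and Mid1, are not members and were counted apart.

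TRIM proteins share an amino-terminal RING, B-box and coiled-coil module, which binds a ubiquitin-conjugating enzyme and joins the proteins into higher-order assemblies. The carboxy-terminal domain sets what is bound: the SPRY domain recognises viral capsids and host proteins, and the PHD-bromodomain pair reads histone tails. Many members of the SPRY class are known in macrophages and monocytes as interferon-stimulated genes that restrict viruses or tune nucleic acid sensing, and the mouse carries an expanded set of relatives of the human restriction factor TRIM5.

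The RNA came from monocytes of C57BL/6 NFAM1+/+ and NFAM1-/- mice, which were cultured for 6 or 24 h without a stimulus or with IFN-γ at 100 µg/mL followed by MegaCD40L, a multimeric CD40 ligand, at 1 µg/mL. Each of the 8 combinations of genotype, stimulus and time has 2 libraries by title, 16 in all. NFAM1 is an ITAM-bearing membrane receptor of myeloid and B cells, and the NFAM1-/- mice lack its exons 2 and 3 in all cells. They were made with Cas9 in C57BL/6NTac zygotes, and both genotypes came from crosses of heterozygotes. The labels call the cells monocytes of peripheral blood, while the study's methods describe enrichment from bone marrow. The study's methods also give a lower dose of IFN-γ for the sequenced cells than the labels do, and no comparison here depends on it. The study states how many mice of each genotype gave cells for sequencing, but neither it nor the labels tie a library to its mice, so the p-values measure the spread between libraries, which may be technical.

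Between 48295939 and 88514341 reads per library fell on genes of the table, and values are given as CPM, the counts of a gene per 1000000 reads of the library size that the authors adjusted. Nfam1, the targeted gene, was at 432 and 408 CPM in NFAM1+/+ and 299 and 321 CPM in NFAM1-/- without stimulus at 6 h, and at 129 and 133 in NFAM1+/+ and 135 and 127 in NFAM1-/- with it. At 24 h, with the genotype of the titles, it was at 463 and 495 in NFAM1+/+ and 441 and 391 in NFAM1-/- without stimulus and 271 and 252 in NFAM1+/+ and 201 and 223 in NFAM1-/- with it. The NFAM1-/- libraries were lower in 3 of these 4 settings and overlapped with NFAM1+/+ in the stimulated cells at 6 h, where reads outside the deleted exons are counted too. For 4 of the 8 libraries at 24 h the genotype tag names the other genotype than the title, and by the tag the Nfam1 levels of the genotypes overlapped in both states at 24 h. Genotypes are those of the titles unless the tag is named. The 8 monocyte markers summed to 22173 to 24194 CPM without and 5831 to 7645 CPM with the stimulus at 6 h, and to 25933 to 30126 and 6241 to 8797 CPM at 24 h. Single monocyte markers differed, with log2 changes at 6 h from -4.19 for Cx3cr1 to 4.47 for Fcgr1, the only 1 of the 8 that rose. The 8 neutrophil markers summed to 68.6 to 220.4 and 82.9 to 354 CPM at 6 h, and to 529 to 916 and 123 to 211 CPM at 24 h. The 4 listed erythroid genes summed to 3.78 to 15.5 and 8.09 to 43.2 CPM at 6 h, and to 3.43 to 20.3 and 0.879 to 3.40 CPM at 24 h. The 4 dendritic cell markers summed to 28.0 to 38.7 and 19.3 to 29.4 CPM at 6 h, and to 85.2 to 176 and 21.5 to 29.3 CPM at 24 h. They also went in both directions, with log2 changes at 6 h from -2.76 for Flt3 to 2.31 for Xcr1. The B cell markers Cd79a and Cd79b summed to 4.33 to 4.79 and 1.04 to 1.58 CPM at 6 h, and to 6.54 to 17.4 and 1.46 to 4.08 CPM at 24 h, and Ms4a1 and Pax5 are not in the table. Of the 5 T cell markers 2 are in the table, with sums of at most 4.54 CPM in every library, and Cd3d, Cd3e and Cd3g are not. None of the 4 NK cell markers is listed. The part of these cell type markers in the responses of the TRIM genes was not tested. In bulk RNA, fewer cells of a type and less RNA per cell cannot be told apart.

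Without stimulus at 6 h, the members with the highest level per kilobase of exon were Trim28, the corepressor of KRAB zinc finger proteins, at 39.5 CPM per kb, and Trim8, at 33.4 CPM per kb. They were followed by Trim25, the ligase of the RNA sensor RIG-I, at 20.3 CPM per kb, and by Trim41 and Trim13 at 16.02 and 14.8. At the low end, Trim72, Trim6 and Trim30b were at 0.0346, 0.0579 and 0.116 CPM per kb. With the stimulus at 6 h this order changed at the top. Trim30a, ranked 8 of 42 without stimulus, ranked 1 at 367 CPM per kb, ahead of Trim30d at 125, Trim25 at 113 and Trim30c at 95.4. Trim30c had ranked 37 of 42. Trim28 went from rank 1 to rank 12. These levels divide the mean CPM of 4 libraries by the exon length of GENCODE vM21, which may differ from the annotation that was used for counting.

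The first comparison asked how the family responded to IFN-γ plus MegaCD40L at 6 h, over both genotypes (4 against 4 libraries). Of the 42 members 17 were called higher and 8 lower at a 2-fold change or more with an adjusted p under 0.05, beside 39.7% of all 12782 genes tested that were called in either direction, 19.1% higher and 20.6% lower. Trim34b, Trim43c and Trim72, which were called higher, passed the filter of 1 CPM only through stimulated libraries. Their part in any count of members called higher is therefore not independent of that filter. The median log2 change of the members was 0.56, and that of all genes was -0.13. In 20 members all 4 stimulated libraries lay above the 4 unstimulated ones and in 17 below, where 71.9% of all genes did not overlap in 1 direction or the other. The share of members called higher was above that of all genes, and the share called lower was near it. The depth of the libraries relative to their scaled size differed with the stimulus, from 0.756 to 0.775 without it to 1.24 to 1.32 with it. When its own total of reads set the scale of each library instead, the median of all genes moved from -0.13 to -0.86 and that of the members from 0.56 to -0.17, with 17 members called higher and 16 lower. Among all genes called, the share that was higher moved from 48.1% to 21.9%. The number of members called higher was the same under both scalings, and the number called lower was not.

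**Figure D1:**
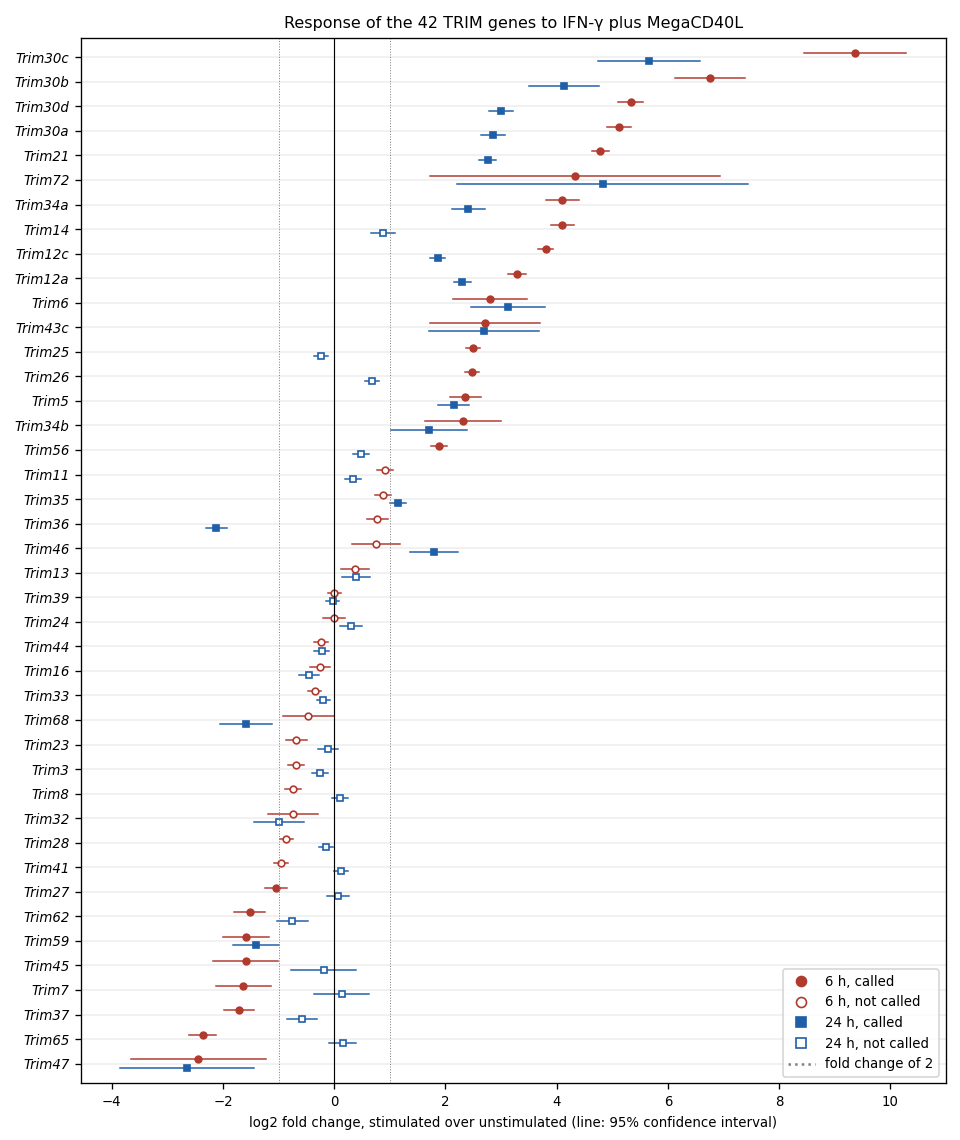
Log2 fold change of stimulated over unstimulated libraries (x axis) for each of the 42 TRIM genes (y axis, sorted by the value at 6 h), with circles for 6 h, squares for 24 h, filled symbols for genes called, and lines for the 95% confidence interval. Trim30c, Trim30b, Trim30d and Trim30a lead at 6 h with 9.37, 6.76, 5.33 and 5.12, and the squares of most risers lie to the left of their circles.

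The largest increases came from the TRIM cluster of chromosome 7, in which Trim6, Trim34a, Trim5, Trim12a, Trim34b, Trim12c, Trim30b, Trim30c, Trim30a and Trim30d lie in this order. All 10 were called higher at 6 h, beside 19.1% of all genes, with a median log2 change of 3.95. Trim34b among them passed the filter only through stimulated libraries. No stimulated library of any of the 10 overlapped with an unstimulated one. Of all 12782 genes tested, 4149 had every stimulated library above every unstimulated one. Trim30c was at 0.288 and 0.281 CPM in NFAM1+/+ and 0.544 and 0.0830 CPM in NFAM1-/- without stimulus, from 9 to 62 reads a library. With the stimulus it was at 149.6 and 191 CPM in NFAM1+/+ and 151 and 163 CPM in NFAM1-/-. All 4 stimulated libraries were high, and the log2 change was 9.37 ± 0.43 (SE, limma, Benjamini-Hochberg adjusted p = 7.37e-11). Its neighbour Trim30b went from 1.33, 0.778, 0.422 and 0.966 CPM, NFAM1+/+ libraries first, to 72.3, 112, 78.4 and 91.2 CPM, a log2 change of 6.76 ± 0.29.

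Trim30a, which is known to restrain Toll-like receptor signalling through TAB2 and TAB3, reached the highest CPM of the family. It was at 46.5 and 40.1 CPM in NFAM1+/+ and 46.8 and 40.3 CPM in NFAM1-/- without stimulus and at 1409 and 1724 in NFAM1+/+ and 1413 and 1485 in NFAM1-/- with it. The groups stood far apart, with a 34.7-fold change (5.12 ± 0.10 on the log2 scale, limma adjusted p = 8.74e-15). Trim30d followed it, with 12.7 and 12.7 CPM in NFAM1+/+ and 12.3 and 9.09 CPM in NFAM1-/- and then 441 and 539 in NFAM1+/+ and 448 and 444 in NFAM1-/-, a 40.3-fold change. In both genes the stimulated NFAM1+/+ library 26 was the highest of its group. Trim30a and Trim30d share 4.39% and 4.54% of their stretches of 101 bases, the length of a read, with each other, and Trim30b and Trim30c share 0 with another gene of the annotation.

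Trim12a, Trim12c and Trim5, the mouse relatives of the retroviral restriction factor TRIM5, had smaller changes than Trim30a, Trim30b, Trim30c and Trim30d. Their levels before the stimulus were above those of Trim30b and Trim30c and below that of Trim30a. Trim12c went from 25.2, 22.9, 25.4 and 22.0 CPM to 333, 335, 331 and 330.2 CPM, with the stimulated libraries close together. Trim12a went from 17.6, 17.2, 20.03 and 21.7 CPM to 179.9, 200.04, 174 and 188 CPM. Their log2 changes were 3.80 ± 0.06 and 3.28 ± 0.07, and that of Trim5 was 2.36 ± 0.13, from 5.65, 6.89, 5.26 and 5.11 to 31.4, 27.4, 31.2 and 26.9 CPM. Trim34a went from 8.95, 11.1, 12.1 and 9.65 CPM to 187, 159, 178 and 192 CPM, a log2 change of 4.10 ± 0.14. Its paralogue Trim34b stayed near 1 CPM, from 0.509, 0.297, 0.248 and 0.144 to 1.27, 1.17, 1.33 and 1.64, a log2 change of 2.31 ± 0.32. The 2 genes share 38.6% and 30.03% of their 101-base stretches, mostly with each other, so how reads were split between them is uncertain. Trim5 shares 11.4% and Trim12c 7.81%, with each other and with Trim12a. Trim6, which is known to make unanchored ubiquitin chains that activate the kinase IKKε, was low at 6 h, at 0.430, 0.136, 0.248 and 0.319 CPM and then 1.74, 1.63, 1.77 and 2.19 CPM, a log2 change of 2.80 ± 0.31.

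**Figure D2:**
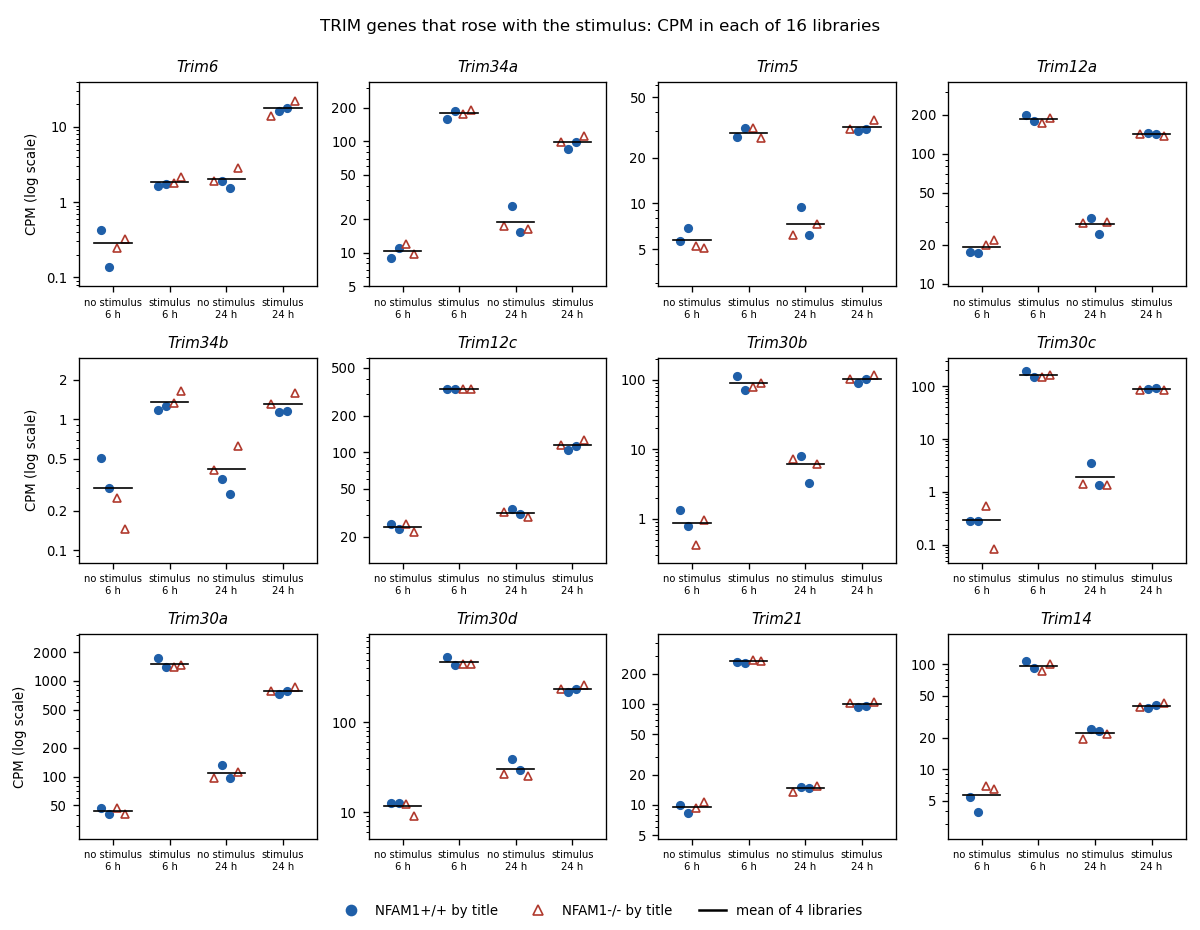
CPM on a log scale (y axis, per panel) of the 10 genes of the chromosome 7 cluster, in their order along the chromosome, and of Trim21 and Trim14 in each of the 16 libraries, by stimulus and time (x axis), with circles for NFAM1+/+, triangles for NFAM1-/- and lines for the mean of 4 libraries. At both times the stimulated libraries of all 12 genes lie above the unstimulated ones, and Trim6 is the one whose stimulated level is higher at 24 h, at 14.004 to 22.3 CPM, than at 6 h, at 1.63 to 2.19 CPM, without overlap.

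Because these genes rose together, the bases around their start sites were read from RefSeq (GRCm38.p6, 250 bases before to 50 after the start). A promoter was listed for 32 members. Both strands were searched for GAAA followed by any 2 bases and again GAAA, the core of the interferon-stimulated response element (ISRE), and for TTCNNNGAA, the core of the gamma-activated sequence (GAS), the elements bound by the STAT and IRF factors downstream of interferons. The ISRE core was found in 3.44% of all 32851 promoters, or by gene in 1079 of 27025. Among genes of the expression table with a listed promoter it was found in 393 of 9513. By gene it was found in 8 of the 15 listed members called higher at 6 h, against 0 of 7 called lower and 0 of 10 not called. Its share among all genes called higher was not computed, so these counts do not set the members apart from other risers. Several of the 8 share promoter sequence, as given below, and are not independent. Whether the motif has a part in the responses was not tested. The 8 are Trim5, Trim12a, Trim12c, Trim21, Trim26, Trim30a, Trim30d and Trim34a. The GAS core was found in 8.30% of all promoters and in 3 members, 1 of them called higher. Among the members called higher, Trim6, Trim25, Trim30b, Trim34b, Trim56 and Trim72 hold neither in this window. Of the 8 members with an ISRE core 6 are shown, each by 1 promoter, without Trim5 and Trim12a. Another listed promoter of Trim30a (chr7:104446076-104446375) also holds an ISRE core and is not shown. The promoter of Trim30c, the member with the largest change, is shown as well. The capitals mark the ISRE core on either strand, and in Trim30c the GAS core.
Trim30a, chr7:104465144-104465443, minus strand: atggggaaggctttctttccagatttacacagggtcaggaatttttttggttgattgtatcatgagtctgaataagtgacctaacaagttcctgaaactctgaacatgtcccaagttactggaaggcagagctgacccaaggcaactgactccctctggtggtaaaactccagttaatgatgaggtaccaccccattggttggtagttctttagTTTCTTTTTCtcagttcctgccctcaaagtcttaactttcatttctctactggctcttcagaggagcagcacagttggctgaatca
Trim30d, chr7:104507800-104508099, minus strand: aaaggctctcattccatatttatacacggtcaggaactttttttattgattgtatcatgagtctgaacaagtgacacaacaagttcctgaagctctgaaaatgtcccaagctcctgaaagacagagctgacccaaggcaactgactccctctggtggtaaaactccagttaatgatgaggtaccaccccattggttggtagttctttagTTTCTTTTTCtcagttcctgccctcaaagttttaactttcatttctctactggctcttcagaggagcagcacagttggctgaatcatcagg
Trim30c, chr7:104400729-104401028, minus strand: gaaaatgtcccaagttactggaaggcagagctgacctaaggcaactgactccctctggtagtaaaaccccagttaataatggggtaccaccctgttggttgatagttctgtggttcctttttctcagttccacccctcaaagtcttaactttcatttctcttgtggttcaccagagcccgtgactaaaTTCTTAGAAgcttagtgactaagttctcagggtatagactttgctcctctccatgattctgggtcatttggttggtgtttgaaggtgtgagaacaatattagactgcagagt
Trim12c, chr7:104353300-104353599, minus strand: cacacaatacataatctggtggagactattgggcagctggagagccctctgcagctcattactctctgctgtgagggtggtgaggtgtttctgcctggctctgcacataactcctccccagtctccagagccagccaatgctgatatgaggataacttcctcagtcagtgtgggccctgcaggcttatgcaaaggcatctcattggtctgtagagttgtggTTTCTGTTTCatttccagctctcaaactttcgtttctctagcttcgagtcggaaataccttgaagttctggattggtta
Trim34a, chr7:104244207-104244506, plus strand: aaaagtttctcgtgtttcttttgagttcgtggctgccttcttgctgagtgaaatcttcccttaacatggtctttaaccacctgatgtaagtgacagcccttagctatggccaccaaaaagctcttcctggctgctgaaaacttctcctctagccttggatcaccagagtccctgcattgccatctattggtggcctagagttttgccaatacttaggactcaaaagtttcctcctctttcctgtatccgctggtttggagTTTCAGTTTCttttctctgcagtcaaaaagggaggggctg
Trim21, chr7:102565433-102565732, minus strand: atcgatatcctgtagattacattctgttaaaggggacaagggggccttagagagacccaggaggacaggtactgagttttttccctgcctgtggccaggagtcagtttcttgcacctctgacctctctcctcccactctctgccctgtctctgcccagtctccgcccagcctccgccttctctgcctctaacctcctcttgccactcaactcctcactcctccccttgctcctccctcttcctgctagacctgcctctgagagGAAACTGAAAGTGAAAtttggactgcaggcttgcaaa
Trim26, chr17:36836896-36837195, plus strand: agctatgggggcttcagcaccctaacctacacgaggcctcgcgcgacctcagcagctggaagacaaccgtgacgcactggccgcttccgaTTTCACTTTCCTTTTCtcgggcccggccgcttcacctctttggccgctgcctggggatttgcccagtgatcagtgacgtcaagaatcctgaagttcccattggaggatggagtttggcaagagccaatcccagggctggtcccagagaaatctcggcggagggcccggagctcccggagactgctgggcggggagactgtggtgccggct
The promoters of Trim30a and Trim30d share an unbroken run of 118 bases that spans the ISRE core, and the longest run that Trim30c shares with Trim30a is 32 bases. The 10 bases of Trim30c closest to the Trim30a motif differ from it by 1 base, T3C, counted from 1 at the left end of the capitals in Trim30a. Such a near match was sought only in Trim30c, so its frequency in other promoters was not tested. In Trim21 and Trim26 pairs of ISRE cores overlap. The promoters of Trim5 and Trim12a share a run of 241 bases, and both share 71 bases with Trim12c. A match is a description of the letters and not of a bound factor, and the positions of RefSeq may differ from the starts used in these cells.

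Summed over the 42 members, the CPM of the family went from 1164 ± 20.6 to 5037 ± 249 at 6 h (mean ± SD, n = 4 libraries). The 10 cluster genes held 9.35% to 10.5% of this sum without the stimulus and 57.7% to 61.0% with it. At 24 h the sum was 1387 ± 37.3 CPM without and 2910 ± 81.7 CPM with the stimulus, and the cluster held 15.4% to 19.9% and 53.4% to 58.2%. The ranges did not overlap between stimulated and unstimulated libraries at either time. The sums rest on the deposited scaling, which was not the same for both states, while the share held by the cluster does not depend on it.

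**Figure D3:**
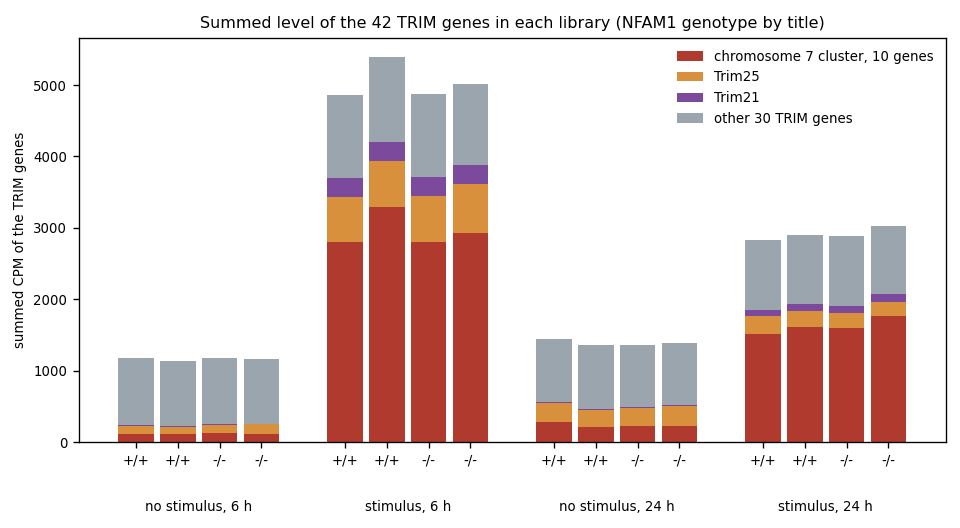
Summed CPM of the 42 TRIM genes (y axis, from 0) in each of the 16 libraries (x axis, NFAM1 genotype of the title below each bar), split into the 10 cluster genes, Trim25, Trim21 and the other 30. The cluster part grows from 109 to 123 CPM without to 2805 to 3290 CPM with the stimulus at 6 h, and the part of the other 30 genes changes less.

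Outside the cluster, 7 members were called higher at 6 h. Trim21, the cytosolic antibody receptor that sends antibody-coated viruses to the proteasome, was at 10.1 and 8.30 CPM in NFAM1+/+ and 9.35 and 10.7 CPM in NFAM1-/- without the stimulus and 256 and 258 in NFAM1+/+ and 275 and 268 in NFAM1-/- with it. The stimulated libraries were all high and close together, with a 27.6-fold change (4.79 ± 0.07 on the log2 scale, limma adjusted p = 7.79e-16). Trim14, a RING-less adaptor at mitochondria that acts with MAVS, went from 5.43, 3.92, 6.86 and 6.49 CPM to 91.2, 107, 85.3 and 99.2 CPM, a 17.2-fold change, and 29.8% of its 101-base stretches also occur in another gene (Nans, Gm16731 or Gm22247). Trim25 went from 112, 100.4, 116 and 138 CPM to 632, 651, 633 and 692 CPM, a 5.62-fold change. Trim26, a ligase known to act on IRF3, changed 5.56-fold, from 37.9 to 44.4 CPM to 219 to 253 CPM. Trim56, a ligase linked to STING and to cGAS, changed 3.69-fold, from 53.5 to 63.2 CPM to 201 to 221 CPM. No library of these 5 genes overlapped between the states.

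The other 2 members called higher at 6 h were near the limit of detection. Trim72, known from membrane repair in muscle, had 0, 12, 9 and 2 reads in the unstimulated libraries at 6 h, NFAM1+/+ first, and 45, 22, 39 and 59 with the stimulus, which is at most 1.17 CPM. Its log2 change of 4.33 ± 1.21 has the widest error of the members called, and 19.6% of its stretches also occur in the gene Gm15533. At 24 h it had 4, 0, 6 and 0 reads without and 14, 71, 41 and 62 with the stimulus. Trim43c was at 0.233 to 0.748 CPM without and 1.35 to 3.54 CPM with the stimulus, a log2 change of 2.71 ± 0.46 (limma adjusted p = 8.72e-05), and 30.1% of its stretches also occur in Trim43a, Trim43b or 9330159M07Rik.

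The 8 members called lower at 6 h were Trim47, Trim65, Trim37, Trim7, Trim45, Trim59, Trim62 and Trim27, and in each the 4 stimulated libraries lay below the 4 unstimulated ones. Of all 12782 genes tested, 5039 had every stimulated library below every unstimulated one. Trim65, a ligase of the RNA sensor MDA5, was at 13.7 and 12.5 CPM in NFAM1+/+ and 12.1 and 14.97 CPM in NFAM1-/- and with the stimulus at 3.53 and 2.54 in NFAM1+/+ and 2.22 and 2.17 in NFAM1-/-. It decreased 5.16-fold (log2 change -2.37 ± 0.11, limma adjusted p = 1.21e-10). Trim47, its neighbour on chromosome 11, was low in all libraries at 6 h, with 62, 20, 66 and 98 reads and then 14, 2, 2 and 10 reads, a log2 change of -2.44 ± 0.56. The 2 genes share 2.18% and 4.70% of their stretches with each other, and libraries without strand cannot place reads there. Trim37, a ligase of centrosomes and peroxisomes, went from 18.01, 15.7, 17.5 and 17.6 CPM to 5.61, 3.72, 6.14 and 5.77 CPM, a log2 change of -1.72 ± 0.12.

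Trim59, which has a membrane anchor, went from 40.9, 42.4, 44.8 and 40.6 CPM to 15.99, 9.66, 17.7 and 13.96 CPM, a log2 change of -1.59 ± 0.19. Trim62 went from 8.01, 7.72, 9.84 and 8.51 CPM to 2.23, 3.00, 3.503 and 3.23 CPM, a log2 change of -1.52 ± 0.13. Both were clear of overlap and well above 1 CPM in every library at 6 h. Trim7 and Trim45 were lower in level, with 1.28, 1.26, 1.51 and 1.12 CPM to 0.273, 0.392, 0.461 and 0.599 CPM for Trim7 and 2.82, 2.03, 2.23 and 3.04 CPM to 0.990, 0.665, 0.688 and 1.03 CPM for Trim45. Their log2 changes were -1.63 ± 0.23 and -1.59 ± 0.27. Trim27, a ligase of the retromer-linked WASH complex, went from 47.3, 50.9, 49.1 and 46.6 CPM to 24.7, 18.2, 28.5 and 23.3 CPM, a log2 change of -1.05 ± 0.09, just past the limit of 2-fold. Its call was lost without the stimulated NFAM1+/+ library 26, at -0.94, without the stimulated NFAM1-/- library 12, at -0.98, and with libraries centred on their medians, at -0.88.

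**Figure D4:**
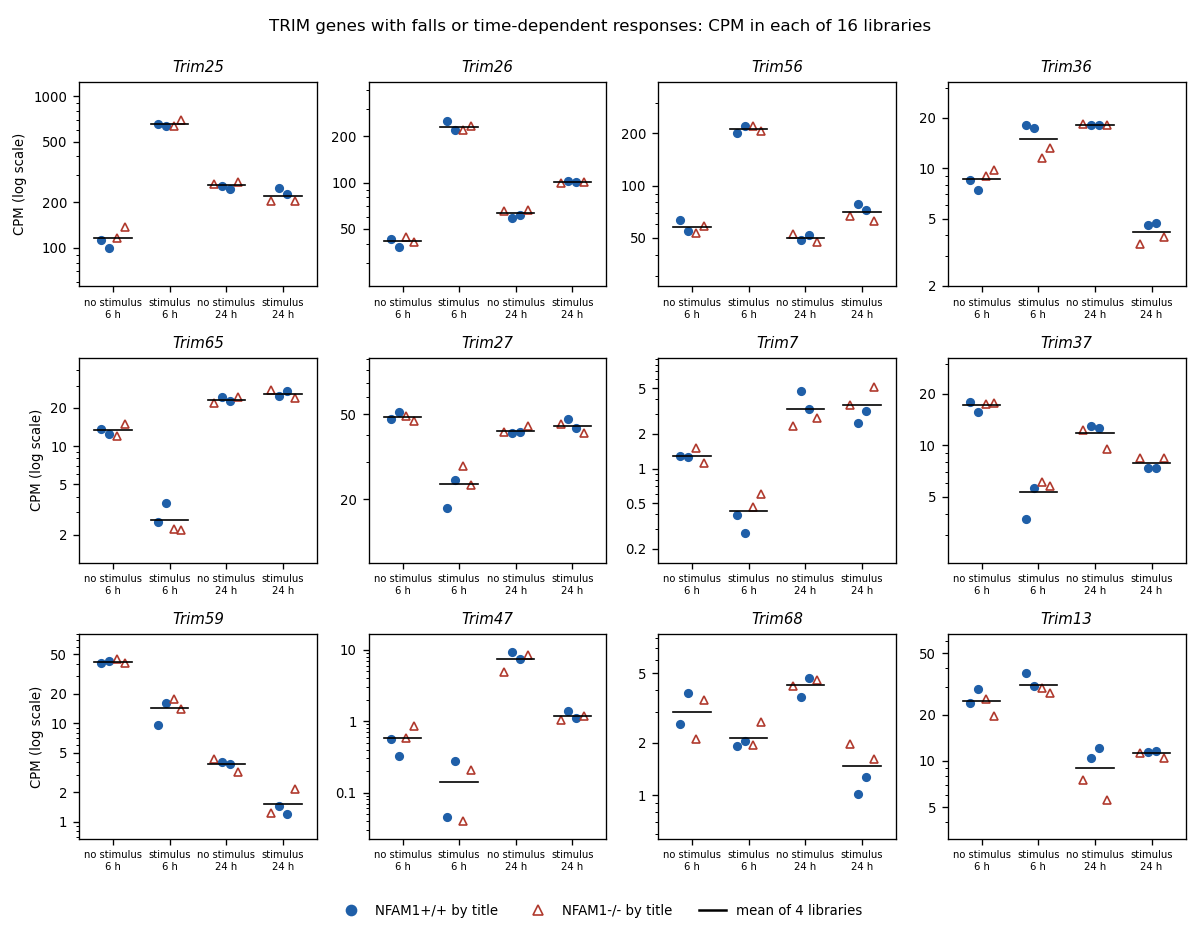
CPM on a log scale (y axis, per panel) of 12 TRIM genes in each of the 16 libraries by stimulus and time (x axis), with circles for NFAM1+/+, triangles for NFAM1-/- and lines for the mean of 4 libraries. Trim25 and Trim65 respond at 6 h, up to 692 CPM and down to 2.17 CPM, and are near their unstimulated level at 24 h, Trim36 is low in the stimulated libraries of 24 h at 3.56 to 4.71 CPM, and Trim59 is lower at 24 h than at 6 h in either state.

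By class, 15 of the 25 members listed as SPRY were called higher at 6 h and 5 lower, beside 19.1% and 20.6% of all genes, with a median log2 change of 2.48. The 15 include Trim34b, Trim43c and Trim72, which passed the filter only through stimulated libraries. The count and the median of the class are therefore not independent of that filter. Of the RING-less members, Trim14 was called higher, and Trim16 and Trim44 were not called, at -0.26 and -0.24. Trim56 has no such end domain and was called higher, and Trim37, Trim45 and Trim59, of the MATH, filamin and membrane-anchored classes, were called lower. None of the 3 listed PHD-bromodomain members was called. Trim28 was at 166, 165, 161 and 166 CPM and then 92.5, 81.3, 94.4 and 94.8 CPM, a log2 difference of -0.86 ± 0.06 that is under 2-fold but past the adjusted p and without overlap. The differences were -0.35 ± 0.05 for Trim33, a SMAD4 regulator, and 0.00 ± 0.09 for Trim24, a nuclear receptor coregulator. With own totals as the scale, the values for Trim28, Trim33 and Trim24 were -1.59, -1.08 and -0.73, beside the median of all genes of -0.86, and Trim28 and Trim33 were then called lower. The 17 members that were not called at 6 h ranged from a log2 difference of -0.96 for Trim41 to 0.91 for Trim11.

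At 24 h the same comparison (4 against 4 libraries) had 15 members called higher and 4 lower, beside 33.3% of all genes called in either direction, 14.6% higher and 18.7% lower. In 20 members all 4 stimulated libraries lay above the unstimulated ones and in 10 below, where 68.9% of all genes did not overlap. The median log2 change was 0.23 in the members and 0.01 in all genes. All 10 cluster genes were again called higher, with a median of 2.64, beside Trim21, Trim72, Trim43c, Trim46 and Trim35. Scaled to the own totals, 14 members were called higher and 6 lower, and Trim35 was no longer called, at 0.81. The share of higher calls among all genes called moved from 43.9% to 30.4%, and the median of all genes to -0.33.

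Whether the response differed between the times was tested directly, as the response at 24 h minus that at 6 h. In 13 members the response was lower at 24 h and in 7 higher, beside 31.5% of all genes called in either direction, 13.3% higher and 18.2% lower. Scaled to the own totals these were 12 and 10, and among all genes called the share of higher differences moved from 42.1% to 67.4%. Of the 10 cluster genes 6 had a lower response at 24 h, beside 18.2% of all genes. Without the stimulus 5 of the 10 were called higher at 24 h than at 6 h, beside 13.2% of all genes. With the stimulus 1 of the 10 was called higher and 1 lower, beside 16.5% and 17.2% of all genes. Trim30c was at 3.5 and 1.36 CPM in NFAM1+/+ and 1.41 and 1.35 CPM in NFAM1-/- without and at 88.3 and 92.7 CPM in NFAM1+/+ and 84.0 and 85.9 CPM in NFAM1-/- with the stimulus at 24 h. Its log2 response of 5.66 ± 0.43 differed from that at 6 h by -3.71 ± 0.60 (limma adjusted p = 9.08e-05). Trim30b was at 8.14, 3.26, 7.34 and 6.11 CPM and then 91.2, 104, 104 and 115 CPM, and its response of 4.14 differed from that at 6 h by -2.62 ± 0.41. The stimulated level of Trim30b at 24 h overlapped with that at 6 h, while its unstimulated level was higher at 24 h in every library.

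Trim30a was at 131, 96.9, 96.3 and 113 CPM without and 733, 779, 777 and 863 CPM with the stimulus at 24 h, and Trim30d at 39.0, 29.2, 26.9 and 25.1 and 217, 234, 236 and 262 CPM. Their log2 responses were 2.86 and 3.00, and the differences from 6 h were -2.26 ± 0.14 and -2.33 ± 0.15. Trim12c, Trim34a and Trim21 differed in the same direction, by -1.94 ± 0.09, -1.69 ± 0.20 and -2.03 ± 0.10. Trim21 was at 15.1, 14.8, 13.3 and 15.4 CPM without and 94.0, 94.5, 103 and 105 CPM with the stimulus at 24 h. Trim12a, at 31.9, 24.3, 29.6 and 29.7 and 145, 143, 142 and 138 CPM, had a difference of -0.98 ± 0.10, just under the limit of 2-fold. Without any 1 of 4 libraries it was past that limit: -1.003 without stimulated NFAM1-/- library 11, -1.01 without unstimulated NFAM1-/- library 4, -1.01 without stimulated NFAM1+/+ library 10, all at 6 h, and -1.07 without unstimulated NFAM1+/+ library 45 at 24 h. It was -1.13 with libraries centred on their medians, -0.68 after quantile normalization and -0.58 scaled to the own totals. Trim6 was the cluster gene with the highest response at 24 h relative to 6 h, with a difference of 0.32 ± 0.44 (95% confidence interval -0.62 to 1.26) that did not pass the test. Trim6 was at 1.89, 1.53, 1.93 and 2.82 CPM without and 16.2, 17.99, 14.004 and 22.3 CPM with the stimulus at 24 h. Trim5 and Trim34b had differences of -0.21 ± 0.18 and -0.60 ± 0.45, which did not pass either.

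For 4 risers of 6 h outside the cluster the response at 24 h was under 2-fold. Trim14 was at 24.0 and 23.0 CPM in NFAM1+/+ and 19.2 and 21.7 CPM in NFAM1-/- without and 38.6 and 41.0 CPM in NFAM1+/+ and 39.0 and 42.4 CPM in NFAM1-/- with the stimulus at 24 h. It was 1.84-fold higher with the stimulus, under the 2-fold limit, and the difference from 6 h was -3.23 ± 0.14 (limma adjusted p = 4.99e-10). Trim25 was at 257 and 244 CPM in NFAM1+/+ and 262 and 271 CPM in NFAM1-/- without and 246 and 227 CPM in NFAM1+/+ and 202 and 203 CPM in NFAM1-/- with the stimulus, so the groups overlapped, and its response went from 2.49 to -0.24, a difference of -2.73 ± 0.08. Trim26 and Trim56 had log2 responses of 0.68 and 0.48 at 24 h and differences of -1.79 ± 0.08 and -1.40 ± 0.09.

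Trim36, a microtubule-associated ligase of the COS-FN3-SPRY class, differed in direction. At 6 h it was at 8.56 and 7.45 CPM in NFAM1+/+ and 8.96 and 9.72 CPM in NFAM1-/- without and 17.4 and 18.1 CPM in NFAM1+/+ and 11.5 and 13.1 CPM in NFAM1-/- with the stimulus, a log2 difference of 0.77 ± 0.09 that is under 2-fold. At 24 h it was at 18.1 and 18.2 CPM in NFAM1+/+ and 18.2 and 18.05 CPM in NFAM1-/- without and 4.59 and 4.71 CPM in NFAM1+/+ and 3.56 and 3.89 CPM in NFAM1-/- with it, a 4.36-fold decrease (log2 change -2.12 ± 0.09, limma adjusted p = 3.25e-11). The 4 unstimulated libraries at 24 h were close together, and the difference of the responses was -2.90 ± 0.12. In 7 members the response was higher at 24 h than at 6 h. Trim65 was at 24.3, 22.8, 22.0 and 24.2 CPM without and 24.8, 27.2, 27.7 and 24.1 CPM with the stimulus at 24 h, so the groups overlapped, and its response differed from that at 6 h by 2.52 ± 0.16. Trim7, Trim45, Trim37, Trim27 and Trim41 also had higher log2 responses at 24 h, with differences of 1.76, 1.40, 1.15, 1.12 and 1.08. With libraries centred on their medians the calls of Trim37, Trim27 and Trim41 were lost, at 0.99, 0.96 and 0.92, and after quantile normalization those of Trim27 and Trim41, at 0.98 and 0.93.

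Trim46, of the same class as Trim36, was at 0.992 to 1.40 CPM without and 3.76 to 4.28 CPM with the stimulus at 24 h, a log2 change of 1.798 ± 0.20, and differed by 1.04 ± 0.28. Trim68, at 3.67, 4.68, 4.21 and 4.59 CPM and then 1.01, 1.27, 1.96 and 1.61 CPM, was called lower at 24 h, with -1.59 ± 0.21, and its difference was -1.12 ± 0.30. These calls of a difference were near the limit of 2-fold. Leaving out 1 library ended that of Trim37 (stimulated NFAM1+/+ 26, 0.998) and that of Trim68 (unstimulated NFAM1-/- 3, -0.94, and unstimulated NFAM1+/+ 1, -0.97). It ended that of Trim46 for stimulated libraries 12, 26 and 57 and unstimulated libraries 2, 3, 44 and 46, with values of 0.84 to 0.99. Without the 4 libraries with conflicting labels the difference was 0.92 for Trim46 and -1.02 for Trim68, with limma adjusted p of 0.0661 and 0.0586. The call of Trim46 was also lost with centring (0.89) and with voom weights (0.99), and that of Trim68 after quantile normalization (-0.88) and scaled to the own totals (-0.72). Trim47 and Trim59 were called lower at both times. Trim47 was at 9.23, 7.39, 4.92 and 8.504 CPM without and 1.37, 1.10, 1.05 and 1.19 CPM with the stimulus at 24 h, a log2 change of -2.64 ± 0.56, and Trim59 at 4.05, 3.88, 4.36 and 3.23 and 1.43, 1.21, 1.21 and 2.14 CPM, a change of -1.41 ± 0.19.

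Time in culture was compared within each state, and it cannot be told apart from any difference in when the libraries were made. These contrasts share their libraries with the responses above. Without the stimulus 10 members were higher and 3 lower at 24 h than at 6 h, beside 21% of all genes called, 13.2% higher and 7.76% lower. With the stimulus 6 were higher and 10 lower, beside 33.7% of all genes, 16.5% higher and 17.2% lower. Scaled to the own totals the stimulated comparison had 8 higher and 7 lower, the median of all genes moved from 0.04 to 0.41, and the share of higher among all genes called from 49.0% to 69.3%. Without the stimulus the largest increases were in Trim47, at a log2 change of 3.74 ± 0.56, Trim6 at 2.93 ± 0.31, Trim30b at 2.86 ± 0.29 and Trim30c at 2.82 ± 0.43. Trim59 was lower at 24 h in both states, by -3.45 ± 0.19 without and -3.26 ± 0.19 with the stimulus, from 40.6 to 44.8 CPM at 6 h to 3.23 to 4.36 CPM at 24 h without it. Trim13, an anchored ligase of the endoplasmic reticulum, was likewise lower at 24 h in both states, by -1.498 ± 0.12 and -1.48 ± 0.12. Trim65 and Trim7 were higher at 24 h among the stimulated libraries, by 3.34 ± 0.11 and 3.06 ± 0.23, and by 0.81 ± 0.11 and 1.30 ± 0.23 without the stimulus, of which that of Trim65 was under 2-fold.

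The study's central comparison was that of NFAM1-/- with NFAM1+/+ (2 against 2 libraries in each of 4 settings). With limma 0 of the 42 members were called in any of the 4, beside 0.0861% of all genes without and 0% with the stimulus at 6 h, and 0.289% without and 0.579% with it at 24 h. Limma with voom weights also called 0 members. By the tag limma called 0 members at 24 h as well. Both NFAM1-/- libraries lay above both NFAM1+/+ libraries in 9, 9, 8 and 13 members and below them in 4, 9, 6 and 13, where the genotypes did not overlap in 42.2%, 42.4%, 45.4% and 48.2% of all genes. The difference of the responses between the genotypes had 0 members called at 6 h, beside 0% of all genes. At 24 h it had 0 members called, beside 0.274% of all genes.

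**Figure D5:**
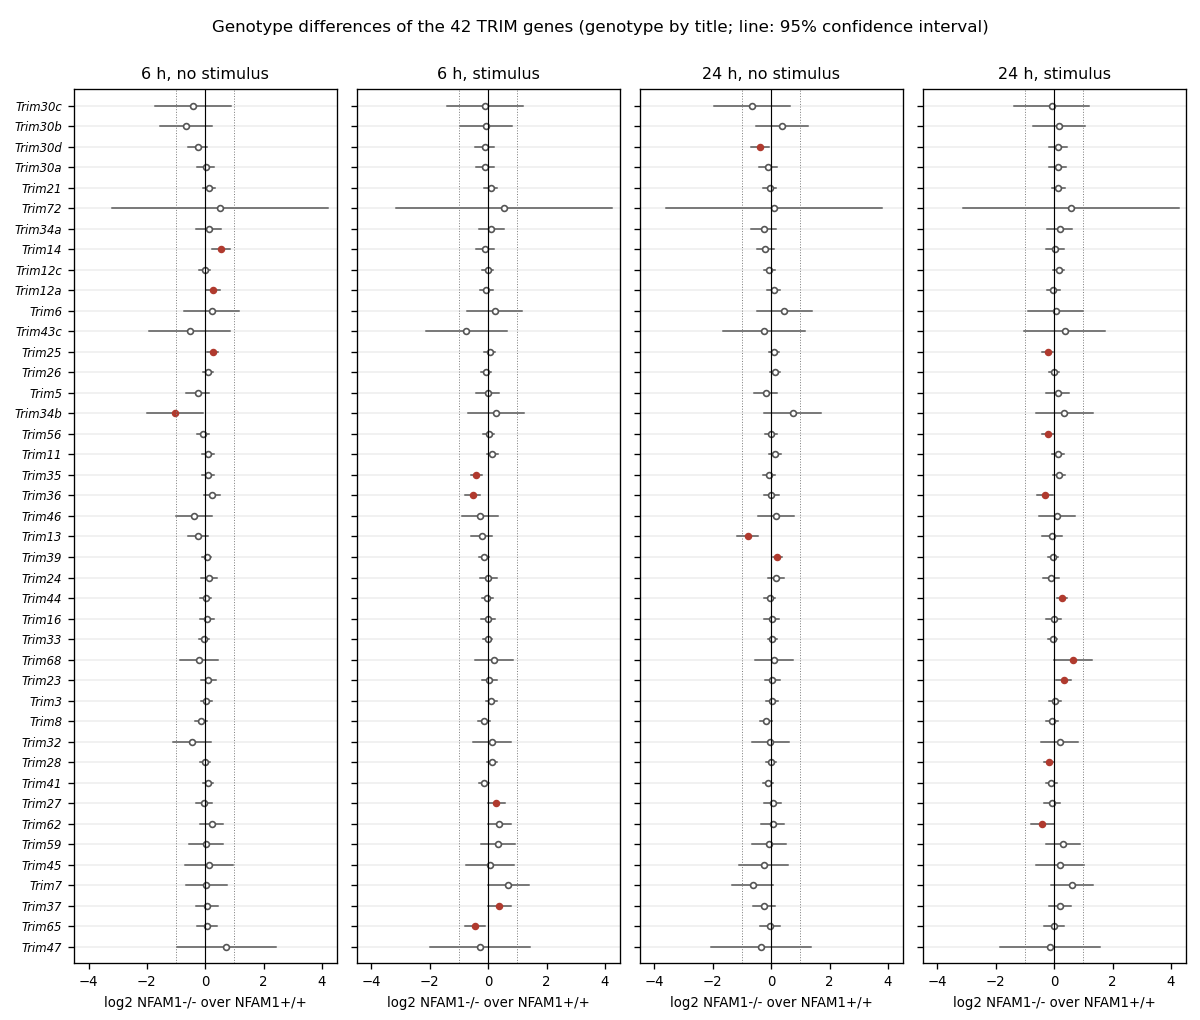
Log2 ratio of NFAM1-/- over NFAM1+/+ (x axis, genotype of the title) for the 42 TRIM genes (y axis, in the order of their response at 6 h) in each of 4 settings, with lines for the 95% confidence interval and filled symbols for an unadjusted p under 0.05. The points lie around 0, and the widest intervals belong to genes with few reads such as Trim72, Trim47 and Trim43c.

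For each setting the 2 members with the smallest p are given. Without the stimulus at 6 h Trim14 was at 5.43 and 3.92 CPM in NFAM1+/+ and 6.86 and 6.49 CPM in NFAM1-/-, a log2 ratio of 0.53 (95% confidence interval 0.23 to 0.83, limma adjusted p = 0.162), and Trim25 had a ratio of 0.25 (0.07 to 0.44). With the stimulus at 6 h Trim35 was at 72.2 and 89.8 CPM in NFAM1+/+ and 60.5 and 60.8 CPM in NFAM1-/-, a ratio of -0.41 (-0.61 to -0.21). Trim36 had a ratio of -0.53 (-0.80 to -0.27), with its 2 NFAM1-/- libraries below both NFAM1+/+ libraries. Neither passed the adjustment, with limma adjusted p of 0.126 and 0.132. With the stimulus at 24 h the smallest were Trim44, at 51.5 and 51.4 CPM in NFAM1+/+ and 58.8 and 64.9 CPM in NFAM1-/- (ratio 0.26, 0.08 to 0.45), and Trim25 (ratio -0.22, -0.41 to -0.04), and by the genotype tag both had the other sign, at -0.07 and 0.05.

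Trim13 came closest to a call. Without the stimulus at 24 h it was at 10.5 and 12.2 CPM in NFAM1+/+ and 7.46 and 5.60 CPM in NFAM1-/- by title, a log2 ratio of -0.80 ± 0.16 with a limma adjusted p of 0.0379, which is past that threshold but under 2-fold. The NFAM1-/- libraries lay below the NFAM1+/+ ones. Leaving out NFAM1-/- library 43 gave -1.01, past both thresholds, while without NFAM1-/- library 46 (-0.60) or NFAM1+/+ library 44 (-0.91) or 45 (-0.69) the limma adjusted p was 0.358, 0.150 and 0.163. Without the 4 libraries with conflicting labels, which leaves 1 library of each genotype here, the ratio was -0.70 with an adjusted p of 0.704. By the genotype tag it was 0.10. By title, the limma adjusted p of Trim13 was 0.134 without the trend, 0.0788 with voom weights and 0.0812 with times fitted separately. It was 0.0593 with libraries centred on their medians and 0.404 against a fold of 1.2. It was 0.0230 after quantile normalization, 0.0299 with a robust prior, 0.0317 scaled to own totals, and 0.0315 and 0.0388 under the other filters. Leaving out 1 library of another setting gave 0.0296 to 0.0632. Trim39 had a ratio of 0.21 (0.04 to 0.38) from 27.3 and 27.0 CPM in NFAM1+/+ and 30.6 and 32.4 CPM in NFAM1-/-, and -0.03 by the tag. With the stimulus at 6 h the log2 ratio of NFAM1-/- over NFAM1+/+ had a 95% confidence interval of -0.41 to 0.20 for Trim30a, -0.20 to 0.18 for Trim12c, -0.14 to 0.29 for Trim21 and -0.14 to 0.23 for Trim25. It was wider, at -1.41 to 1.19 for Trim30c, -0.98 to 0.80 for Trim30b and -3.15 to 4.24 for Trim72. Within each genotype, the response at 6 h had 19 members called higher and 9 lower in NFAM1+/+, beside 39.3% of all genes called (19.2% higher and 20.1% lower), and 17 and 8 in NFAM1-/-, beside 37.8% (18.2% higher and 19.6% lower), and the difference itself was called in none.

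The wider pathway was read from lists of genes with known roles, which were chosen with earlier results of these data known. The 5 genes of ISG15 conjugation, a ubiquitin-like pathway of interferon-treated cells, were called higher at both times, 5 of 5. Of all genes 19.1% were called higher at 6 h and 14.6% at 24 h. The log2 changes of the 5 genes at 6 h were 7.85 for Isg15, 7.75 for its protease Usp18, 6.77 for the ligase Herc6, 5.62 for Ube2l6 and 4.83 for Uba7. Their median was 6.77 at 6 h and 4.54 at 24 h. Of 22 genes of RNA and DNA sensing, the pathway on which Trim14, Trim25, Trim26, Trim56 and Trim65 act, 19 were in the table. At 6 h 10 were called higher and 1 lower, beside 19.1% and 20.6% of all genes, and at 24 h limma called 11 higher and none lower, beside 14.6% and 18.7%. The largest changes at 6 h were in the RNA sensors Ifih1 (6.18), Ddx58 (5.53) and Dhx58 (5.39), the factor Irf7 (6.05) and the adaptor Tmem173 (2.71), and Mavs was the gene called lower (-1.24).

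Of the 12 ubiquitin-activating and -conjugating enzymes with which RING ligases work, 4 were called higher at 6 h and 2 at 24 h, with none lower. Of all genes 19.1% were called higher and 20.6% lower at 6 h, and 14.6% and 18.7% at 24 h. Those of 6 h were Ube2e1 (1.62), Ube2d1 (1.61), Ube2e2 (1.27) and Ube2d3 (1.05), and the median over the list was 0.55, against the -0.13 of all genes. Of the 5 TRIM genes under other names 4 were in the table. Pml, the organiser of nuclear bodies, was called higher at 6 h at 6.06, and Cmya5 was called lower at -1.19. Mid1 and Mefv, at 0.63 and 0.00, were not called.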

How the data were processed

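Bulk polyA RNA of 16 mouse monocyte libraries was sequenced without strand information. The deposited values are log2 CPM, which the authors made by aligning with STAR, counting with Rsubread and scaling with edgeR in the limma-voom form. The submitters' processing notes name GRCm39 (mm39), and versions are not given in the sources used here. All values, 100% within a tolerance of 0.01 reads (in proportion above 1000 reads), gave whole reads, so the CPM printed here includes 0.5 reads.

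The log2 values were tested with limma 3.58.1 in R 4.3.3, in 1 model of 8 title groups with a trend in the prior variance. A gene entered if 2 or more libraries reached 1 CPM (12782 genes, and 303 were left out). A call needed a 2-fold change and a Benjamini-Hochberg adjusted p under 0.05 over all genes tested. On simulated data for the response at 6 h (11985 genes), 100% of the inserted changes were recovered, at a log2 change of 1.5 and of 3. Changes were inserted only in genes with a mean above 2 CPM, with the same spread set for every gene. Recovery in genes at lower levels, and in the genotype comparisons of 2 against 2 libraries, was not tested. The alternatives were other filters, scalings, prior variances, voom weights, fold limits, times fitted separately, the genotype tag, no libraries with conflicting labels, and each library left out in turn.

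This family and the lists were chosen with earlier results of these data known, while the members of the family follow from their symbols alone. Values in every library were to be given for the 10 members called higher and the 10 lower with the largest change at 6 h, the 2 smallest p in each genotype comparison and the 5 largest differences between the times. Cluster and PHD-bromodomain members were all to be named, and up to 5 examples of each list. Other members that were named lie outside this rule and were chosen after their values were seen. Exon lengths and shared 101-base stretches came from GENCODE vM21 (GRCm38), and promoters from RefSeq. A marker gene is not reported here.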

Additional observations from a re-analysis of the deposited data

Results flagged for a closer look

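In 7 of 120 groups of 4 libraries tested, 1 library stood apart from the other 3 by Dixon's criterion at 95%, and chance alone flags about 1 group in 20. Without the stimulus at 24 h these were Trim27 in library 46, at 43.8 CPM, Trim30c in library 44, at 3.4998 CPM, and Trim45 in library 44, at 1.71 CPM. Without the stimulus at 6 h it was Trim30d in library 4, at 9.09 CPM. With the stimulus at 6 h they were Trim28, at 81.3 CPM, and Trim30d, at 539 CPM, both in library 26, and at 24 h Trim33 in library 55, at 35.8 CPM.

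In 20 members the log2 response to the stimulus differed between 24 h and 6 h by a test of that difference with limma. It was lower at 24 h for Trim30c (-3.71), Trim14 (-3.23), Trim36 (-2.90), Trim25 (-2.73), Trim30b (-2.62), Trim30d (-2.33), Trim30a (-2.26), Trim21 (-2.03), Trim12c (-1.94), Trim26 (-1.79), Trim34a (-1.69), Trim56 (-1.40) and Trim68 (-1.12). It was higher at 24 h for Trim65 (2.52), Trim7 (1.76), Trim45 (1.40), Trim37 (1.15), Trim27 (1.12), Trim41 (1.08) and Trim46 (1.04).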

How the results depend on the processing

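No paired analysis was possible because each library has a number of its own in its title and no number is shared between groups. For counts of members called, 351 of 352 values without 1 library and 260 of 280 under the other alternatives were within 1.5 times the reported count. The exceptions at 6 h were the 8 members lower with the stimulus, which became 5 at a mean of at least 5 CPM, 17 with no minimum fold, 14 against a fold of 1.2 and 16 scaled to own totals. At 24 h the 4 lower became 2, 13 and 8 under the first 3 of these. The 7 with a higher response at 24 h than at 6 h became 4, 13 and 11, and 3 with libraries centred on their medians. Between the times without the stimulus, the 10 higher became 23 with no minimum fold and 19 against 1.2, and the 3 lower became 10 and 8, and 5 after quantile normalization. With the stimulus the 6 higher became 14 and 11, and the 10 lower 17 with no minimum fold. Without the stimulus at 24 h, 1 member (Trim13) was lower in NFAM1-/- with no minimum fold, and 0 to 1 when 1 library was left out, the 1 being without NFAM1-/- library 43. Fewer genes were tested at the higher CPM limit, and for the scalings the cause was not tested.

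The sign of small values turned. Scaled to own totals, Trim24 was at -0.73 at 6 h and -0.0312 at 24 h, Trim27, Trim65 and Trim7 at -0.27, -0.18 and -0.20 at 24 h, and the difference of Trim5 between the times was 0.19. After quantile normalization Trim27 was at -0.0614 and Trim45 at 0.18 at 24 h, and without the 4 libraries with conflicting labels Trim45 was at 0.25. When 1 library was left out, Trim24 at 6 h ranged from -0.11 to 0.12 and the difference of Trim6 between the times from -0.0923 to 0.74. By the genotype tag at 24 h, Trim13 was at 0.10, Trim39 at -0.0339, Trim44 at -0.0693 and Trim25 at 0.0542. The depth limits Trim72, Trim47 and Trim43c, which had the widest errors.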
